A study of Mus musculus with 6 samples.

Results

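The 9 chemokine ligands Ccl2, Ccl3, Ccl4, Ccl6, Ccl7, Ccl9, Cxcl1, Cxcl5 and Cxcl12 were followed across multipotent (mSSC), intermediate (iSSC) and unipotent (SSC) spermatogonial stem cell cultures. They were taken from a list of 9 named genes, and all 9 were measured, of 18194 genes in all. For a gene with several probe sets, the set with the highest mean over the 6 arrays gave its value. That mean chose the probe set and is not itself a result. The cultures were started from testes of male ICR mice aged 3 to 5 days. All 3 kinds were grown on mitomycin-treated embryonic fibroblast feeders, no transgene or drug treatment is named, and the colonies were sorted into kinds by shape. Colonies that had turned flat or embryonic-stem-like stayed in germ stem cell medium or were moved to a serum-free embryonic stem cell medium, and the labels do not give the medium of each array. Each kind was measured on 2 Affymetrix arrays, so n = 2 for every group mean and SD. Nothing in the labels says that the replicates came from different cultures or mice. The p-values therefore rest on the spread between arrays alone, and that spread may be technical.

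Chemokines are small secreted proteins that attract cells by binding receptors of the G protein-coupled class. They are divided by the spacing of their first conserved cysteines into a CC group, such as the Ccl proteins, and a CXC group, such as the Cxcl proteins. Most inflammatory members are switched on in macrophages and fibroblasts by signals that pass through the transcription factor NF-κB, and they recruit leukocytes. Cxcl12 differs in that many stromal cells make it without stimulation. In the testis it is made by somatic cells of the niche, and its receptor Cxcr4 is carried by spermatogonial stem cells.

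The values are log2 signals, and a difference of 1 is a doubling. The median log2 signal of an array was between 5.83 and 5.93, and the lower quartile was between 4.23 and 4.38. A value near that quartile is close to the array's background, so no fold is given against it, and a log2 difference against it is a lower limit of the size of the change. Over the genes, which are not independent replicates, the 2 arrays of a kind correlated at Pearson's r of 0.972 in mSSC, 0.990 in iSSC and 0.972 in SSC. The labels were checked against markers. All 10 pluripotency markers lay above the array median in both mSSC arrays, against 5 or 6 of 10 in an iSSC array and 5 in an SSC array. All 11 germ line markers lay above it in every iSSC and SSC array, against 8 in an mSSC array.

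Markers of other cell types were present. Of 20 macrophage markers, 6 and 7 lay above the array median in the mSSC arrays, against 18 and 17 in the iSSC arrays and 19 in both SSC arrays. Here and below, a summed log2 signal is the log2 of the summed linear signals, in which the brightest genes weigh most. For the macrophage markers it was 10.98 and 12.00 in mSSC, 14.58 and 13.85 in iSSC, and 16.22 and 15.56 in SSC. Of 20 fibroblast markers, 18 and 19 lay above the array median in mSSC, 19 in both iSSC arrays and 20 in both SSC arrays, with summed log2 signals of 13.28 and 14.35, 14.45 and 14.87, and 16.77 and 16.13. Among defining macrophage markers, the scavenger receptor gene Cd163 was below the lower quartile on every array (3.21 to 3.63). Complement genes C1qa and C1qb were at 4.11 to 4.72 in mSSC. Other markers of the list were bright there, with Laptm5 at 10.02 and 11.27 and Cd68 at 8.16 and 9.84. Laptm5 was at 10.28 and 9.45 in iSSC. Of 12 Sertoli cell markers 8 were lower and 1, Rhox5, higher in mSSC than in SSC, beside 10.6% and 8.22% of all genes. Of 10 endothelial markers 4 were higher, Pecam1, Tek, Esam and Cldn5, and none was lower. The endothelial markers Cdh5, Tie1 and Emcn lay between 3.98 and 4.67 in mSSC, near the lower quartile. In bulk RNA, fewer cells of a type and less RNA per cell cannot be told apart.

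Counted over the 9 ligands, 5 were lower in mSSC than in SSC and none was higher. Over all genes 10.6% were called lower and 8.22% higher in this comparison. The 5 were Ccl3, Ccl4, Ccl6, Ccl9 and Cxcl12, and the median difference of the 9 was -1.95, against 0.08 over all genes. In mSSC against iSSC 4 were lower, Ccl3, Ccl6, Ccl9 and Cxcl12, and none was higher, beside 9.6% and 7.53% of all genes, with a median of -3.42 against -0.0084. Without mSSC replicate 2 that count was 7. In iSSC against SSC 0 of the 9 passed in limma, also with a variance trend and robust fit, beside 2.09% of all genes called. At an unadjusted p under 0.05 were 3 of the 9 and 3090 of all 18194 genes. In the last comparison 1.87% of all genes were called lower and 0.225% higher. The 3 comparisons share arrays and are not independent.

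By position alone, 5 of the 9 ligands were lower on both mSSC arrays than on every other array, as were 20.6% of all genes. Ccl2, Ccl7 and Cxcl1, 3 of the 9, were higher on both iSSC arrays than on every other array, as were 13.8% of all genes. Pair by pair, 5 ligands were lower without overlap in mSSC against SSC and 0 higher, beside 26.3% and 32.3% of all genes. In mSSC against iSSC 8 were lower and 0 higher, beside 33.2% and 29.6%. In iSSC against SSC 3 were lower and 4 higher, beside 17.7% and 32.3%. The members were picked from a family with earlier results of these arrays known, so these shares describe the 9 and do not extend to chemokines in general.

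**Figure D1:**
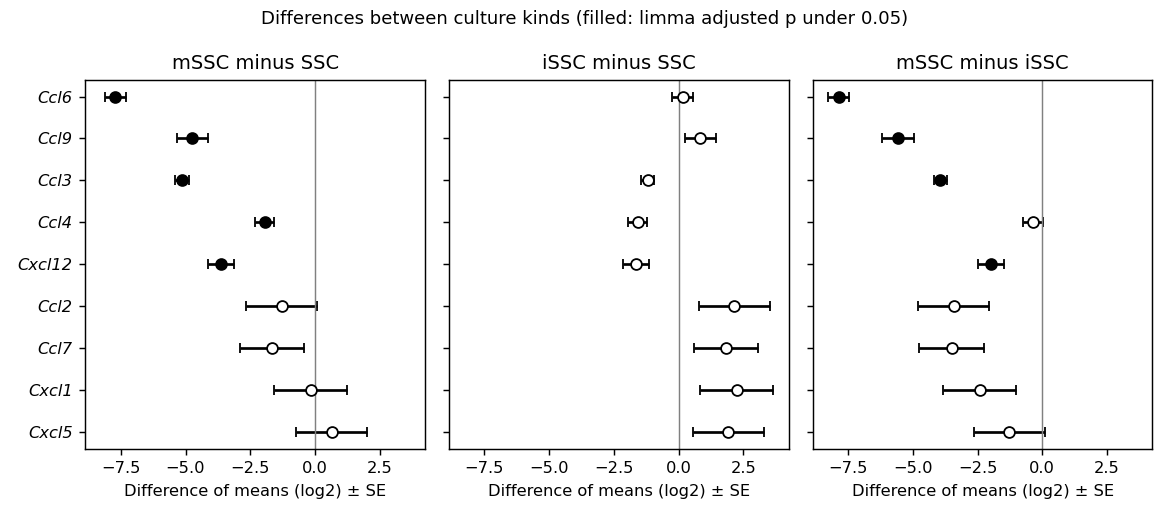
Differences of group means (log2, horizontal axis) ± SE for the 9 ligands in mSSC minus SSC, iSSC minus SSC and mSSC minus iSSC. Filled points had an adjusted p under 0.05, which 5, 0 and 4 ligands did, and the error bars of Ccl2, Ccl7, Cxcl1 and Cxcl5 are wide in all panels.

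Ccl6 and Ccl9 are neighbouring genes on chromosome 11 with no protein-coding gene between them in the RefSeq annotation of the mouse assembly GRCm38.p6. They encode related mouse CC chemokines that act on the receptor Ccr1. RefSeq promoter windows of the same build were at hand for 5 of the 9 ligands, Ccl3, Ccl6, Ccl9, Cxcl1 and Cxcl12, but not for Ccl2, Ccl4, Ccl7 and Cxcl5. The 250 bases before the start of Ccl6 (chr11:83593088-83593337, minus strand) and of Ccl9 (chr11:83578637-83578886, minus strand) are shown because these neighbours shared the longest stretch among the 5 windows. Capitals mark a run of 13 identical bases, which begins 55 bases before the start in Ccl6 and 14 bases before it in Ccl9.
Ccl6: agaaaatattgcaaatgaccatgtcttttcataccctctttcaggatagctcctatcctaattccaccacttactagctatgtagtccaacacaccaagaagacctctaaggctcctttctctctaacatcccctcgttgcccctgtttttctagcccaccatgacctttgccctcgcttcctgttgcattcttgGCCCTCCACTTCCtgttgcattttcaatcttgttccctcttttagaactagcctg
Ccl9: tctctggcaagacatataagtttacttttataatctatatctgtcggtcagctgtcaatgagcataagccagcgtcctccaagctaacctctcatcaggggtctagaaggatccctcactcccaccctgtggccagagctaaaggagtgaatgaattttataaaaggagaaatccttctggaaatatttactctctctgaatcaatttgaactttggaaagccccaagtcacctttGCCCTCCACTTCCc
In the other pairs of windows the longest shared run had 7 or 8 bases. The shared run is a description of the sequence and was not tested for any function.

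Ccl6 and Ccl9 were abundant in iSSC and SSC and near background in mSSC. Ccl6 measured 4.79 and 4.12 in mSSC, 12.78 and 11.85 in iSSC, and 12.44 and 11.89 in SSC. Every mSSC array was below every other array, while the iSSC and SSC values overlapped. Ccl6 fell in mSSC, with a log2 difference of -7.71 ± 0.40 (SE) against SSC (limma adjusted p = 0.000519) and of -7.86 ± 0.40 against iSSC (adjusted p = 0.000587). Both are lower limits in size, since mSSC was near background. Its iSSC minus SSC difference was 0.15 ± 0.40 (adjusted p = 0.898). A second Ccl6 probe set, 1420249_s_at, differed by -6.43 ± 0.51 in mSSC minus SSC and by -6.23 ± 0.51 in mSSC minus iSSC, and its iSSC minus SSC difference was -0.20 ± 0.51.

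Ccl9 measured 4.71 and 4.91 in mSSC, 10.74 and 10.03 in iSSC, and 8.59 and 10.50 in SSC. Again both mSSC arrays were the lowest, and SSC replicate 1 was the lower of the SSC arrays. Ccl9 fell in mSSC, by -4.73 ± 0.60 as mSSC minus SSC (adjusted p = 0.0052) and -5.57 ± 0.60 as mSSC minus iSSC (adjusted p = 0.00345). These too are lower limits in size. The second probe set, 1448898_at, gave -4.34 ± 0.98 and -5.72 ± 0.98 in the same comparisons. Between iSSC and SSC, Ccl9 differed by 0.84 ± 0.60 (adjusted p = 0.555), and without SSC replicate 1 that difference was -0.12.

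The macrophage markers moved with this pair between mSSC and the other kinds. Of the 20 markers, 18 were lower in mSSC than in SSC, beside 10.6% of all genes. Against iSSC 12 were lower in mSSC, beside 9.6%, and no marker was higher in either comparison. Their part in the fall of Ccl6 and Ccl9 was not tested. Between iSSC and SSC, 6 markers were lower in iSSC and none was higher, beside 1.87% and 0.225% of all genes. The median difference was -1.59 over the list, against 0.10 over all genes. Those 6 calls were 0 without SSC replicate 1 or without either iSSC array and 10 without SSC replicate 2. C1qa, a chain of complement C1q, fell in iSSC (-2.95 ± 0.43, adjusted p = 0.0336), whereas Lyz2, the macrophage lysozyme, differed by -1.01 ± 0.30 (adjusted p = 0.174). Beside them stand the iSSC minus SSC values of Ccl6 (0.15) and Ccl9 (0.84). The gap between the ligands and the markers was not tested.

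**Figure D2:**
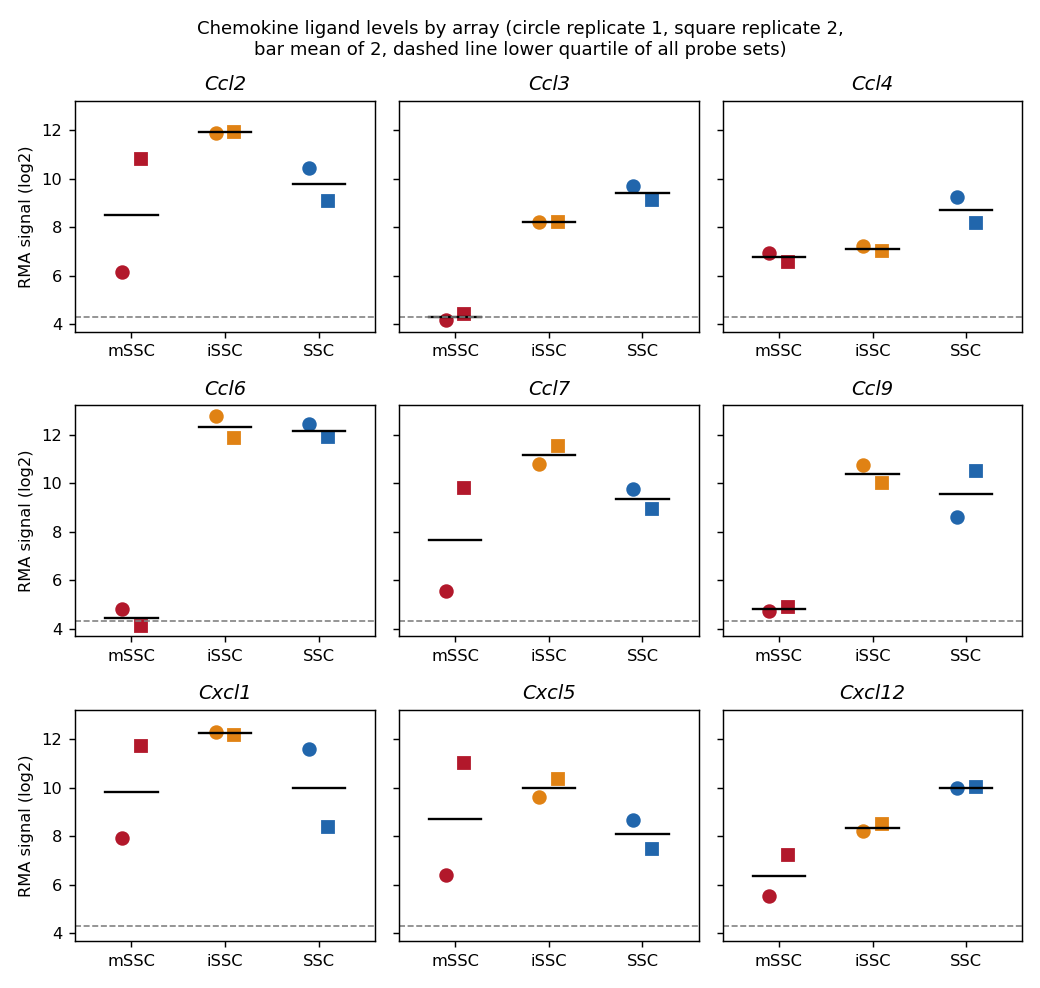
Log2 RMA signal (vertical axis) of each of the 9 ligands in the 2 mSSC, 2 iSSC and 2 SSC arrays (horizontal axis). Circles are replicate 1, squares replicate 2, bars the mean of 2, and the dashed line is the mean lower quartile of all probe sets. Ccl3, Ccl6 and Ccl9 lie near the dashed line in both mSSC arrays, while Ccl2, Ccl7, Cxcl1 and Cxcl5 differ widely between the mSSC replicates.

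Ccl3 and Ccl4, known as macrophage inflammatory proteins 1α and 1β, attract monocytes and T cells. Their genes lie beside each other and next to Ccl6 on chromosome 11. Both were highest in SSC. Ccl3 measured 4.15 and 4.41 in mSSC, 8.23 and 8.21 in iSSC, and 9.70 and 9.13 in SSC. The groups did not overlap in any comparison, and mSSC was at background. Ccl3 fell in mSSC against SSC (-5.13 ± 0.26, adjusted p = 0.000519) and against iSSC (-3.94 ± 0.26, adjusted p = 0.00112), both lower limits in size. Its iSSC minus SSC difference of -1.19 ± 0.26 did not pass the test (adjusted p = 0.0869).

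Ccl4 measured 6.92 and 6.58 in mSSC, 7.22 and 7.02 in iSSC, and 9.25 and 8.16 in SSC. The SSC arrays were the highest, and the mSSC arrays were only just below the iSSC arrays. Ccl4 fell 3.87-fold in mSSC against SSC (-1.95 ± 0.38, adjusted p = 0.0175). That call was lost without mSSC replicate 2 (-1.78, adjusted p = 0.0682) and when a change of at least 2-fold was required (adjusted p = 0.283). The mSSC minus iSSC difference was -0.37 ± 0.38 (adjusted p = 0.591) and the iSSC minus SSC difference -1.58 ± 0.38 (adjusted p = 0.108). Without SSC replicate 2 the last of these passed, at -2.13 (adjusted p = 0.0446).

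By its brightest probe set, Cxcl12 was highest in SSC and lowest in mSSC. It measured 5.54 and 7.22 in mSSC, 8.23 and 8.49 in iSSC, and 10.00 and 10.02 in SSC. No array of a kind overlapped another kind, and the mSSC arrays were 1.68 apart. Cxcl12 fell 12.4-fold in mSSC against SSC (-3.63 ± 0.51, adjusted p = 0.00697). The mSSC minus iSSC difference was -1.98 ± 0.51 (adjusted p = 0.0448), and 10 of the alternatives run, array omissions included, lost this call. This call was lost when any of the 5 arrays other than mSSC replicate 2 was left out, with adjusted p from 0.0544 to 0.205. The iSSC minus SSC difference was -1.65 ± 0.51 (adjusted p = 0.187), and it passed at the same size when either mSSC array was left out (adjusted p = 0.0356).

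Cxcl12 had 3 probe sets, and they disagreed. The second, 1417574_at, measured 6.14 and 5.62 in mSSC, 6.11 and 5.98 in iSSC, and 8.16 and 7.70 in SSC. It fell in mSSC against SSC (-2.06 ± 0.27, adjusted p = 0.011 over all probe sets with a single gene), and mSSC minus iSSC was -0.17 ± 0.27. The third, 1439084_at, lay between 5.95 and 6.55 on all 6 arrays and differed by 0.40 ± 0.21 between mSSC and SSC. The fall of the brightest set, 1448823_at, against SSC was thus seen in the second set and not in the third. Its fall against iSSC was seen in neither, the third set differing by -0.05 ± 0.21. In the limma fit over all probe sets with a single gene, the brightest set was not called against iSSC (adjusted p = 0.0674).

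By group means, all 20 fibroblast markers were highest in SSC, and 18 were lower in mSSC than in iSSC. The other 2 were Lum (1.93 as mSSC minus iSSC) and Fap (0.02). In mSSC against iSSC 11 were lower and 1, Lum, higher without overlap, beside 33.2% and 29.6% of all genes. By limma calls, to which the counts below refer, 16 of the 20 were lower in mSSC than in SSC. Against iSSC 6 were lower, none was higher in either comparison, and the medians were -3.28 and -1.20. Of all genes 10.6% and 9.6% were called lower in these comparisons, and 1.87% in iSSC against SSC. The 16 were 7 without SSC replicate 1. In iSSC against SSC only Col6a2 was lower, at a list median of -1.85, and the count was 6 without either mSSC array and 0 without any iSSC or SSC array. The 6 were 0 without either iSSC array, 2 without mSSC replicate 1 and 12 without mSSC replicate 2. Col1a2, a collagen chain, measured 8.02 and 10.95 in mSSC, 11.40 and 11.94 in iSSC, and 14.27 and 13.40 in SSC. The part of these markers in the levels of Cxcl12 was not tested.

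The promoter windows of Cxcl1 (chr5:90890995-90891244, plus strand) and Cxcl12 (chr6:117168285-117168534, plus strand) are shown because these CXC ligands had unlike profiles. Capitals mark matches to the motifs searched on both strands, which were the NF-κB consensus, the TATA box TATAAA, the core GAGGAA bound by the myeloid factor PU.1, and the GC box GGGCGG.
Cxcl1: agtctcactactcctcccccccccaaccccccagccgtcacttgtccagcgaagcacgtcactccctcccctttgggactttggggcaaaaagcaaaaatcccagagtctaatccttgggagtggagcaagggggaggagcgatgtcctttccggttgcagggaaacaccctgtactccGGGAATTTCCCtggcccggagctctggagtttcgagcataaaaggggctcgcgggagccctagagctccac
Cxcl12: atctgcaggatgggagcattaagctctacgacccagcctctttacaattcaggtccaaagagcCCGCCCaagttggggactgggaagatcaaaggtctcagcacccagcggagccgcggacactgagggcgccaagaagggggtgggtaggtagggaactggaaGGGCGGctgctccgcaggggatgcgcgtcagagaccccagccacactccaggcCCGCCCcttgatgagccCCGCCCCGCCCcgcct
The capitals in Cxcl1 are NF-κB matches from 71 to 61 bases before the start, where a match on the gene's strand overlaps a match on the other strand. Windows that held the NF-κB consensus made up 3.9% of all 32851 promoter windows. Ccl9 also held a match to the consensus, on the strand opposite to the gene, from 35 to 26 bases before the start. The capitals in Cxcl12 are 5 GC boxes, a motif found in 32.7% of windows. The Cxcl12 window was 64.4% G and C with 14 CpG pairs, and that of Cxcl1 was 59.2% with 10, against 43.6% to 46.8% with 2 CpG pairs in each of Ccl3, Ccl6 and Ccl9. TATAAA was found in Ccl9 alone of the 5 windows and in 12.4% of all windows, and GAGGAA in Ccl3 alone and in 23.3%. A match describes letters in the window and does not show binding.

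Ccl2 and Ccl7 encode the monocyte chemoattractant proteins 1 and 3, which recruit monocytes through the receptor Ccr2. Cxcl1 and Cxcl5 attract neutrophils through the receptor Cxcr2. Ccl2 and Ccl7 are adjacent on chromosome 11, and Cxcl5 and Cxcl1 lie in a cluster on chromosome 5 with 4 other protein-coding genes between them. All 4 ligands were high in both iSSC arrays, and none passed the test in any of the 3 comparisons over all 6 arrays. The 2 mSSC arrays differed from each other by more than the kinds did.

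Ccl2 measured 6.17 and 10.82 in mSSC, 11.89 and 11.95 in iSSC, and 10.46 and 9.09 in SSC. The iSSC arrays were the highest, and the mSSC arrays lay on either side of both SSC arrays. Its differences were -1.28 ± 1.37 for mSSC minus SSC (adjusted p = 0.571), 2.15 ± 1.37 for iSSC minus SSC (adjusted p = 0.501) and -3.42 ± 1.37 for mSSC minus iSSC (adjusted p = 0.148). Without mSSC replicate 2 the first was -3.60 (adjusted p = 0.0175) and the last -5.75 (adjusted p = 0.00649). Without mSSC replicate 1 they were 1.05 (adjusted p = 0.31) and -1.10 (adjusted p = 0.3).

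Ccl7 followed Ccl2 closely. It measured 5.55 and 9.80 in mSSC, 10.81 and 11.55 in iSSC, and 9.76 and 8.92 in SSC. Both iSSC arrays were above all others, and mSSC replicate 1 was the lowest of the 6. The differences were -1.67 ± 1.24 for mSSC minus SSC (adjusted p = 0.405), 1.84 ± 1.24 for iSSC minus SSC (adjusted p = 0.527) and -3.50 ± 1.24 for mSSC minus iSSC (adjusted p = 0.111). Without mSSC replicate 2 the first was -3.79 (adjusted p = 0.0104) and the last -5.63 (adjusted p = 0.0051). Without mSSC replicate 1 they were 0.46 and -1.38, and neither passed.

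Cxcl1 measured 7.93 and 11.74 in mSSC, 12.31 and 12.18 in iSSC, and 11.61 and 8.39 in SSC. Here both mSSC and SSC were split between replicates, while the iSSC arrays were 0.13 apart. The iSSC minus SSC difference was 2.25 ± 1.41 (adjusted p = 0.494), and it was 0.64 without SSC replicate 2 and 3.86 without SSC replicate 1. The mSSC minus SSC difference of -0.16 ± 1.41 had no steady sign, being 0.15 and 0.51 in the other probe sets. By Affymetrix naming, the suffix of the main set, 1457644_s_at, marks probes that can match more than 1 transcript. Probe set 1419209_at, without that suffix, measured 7.27 and 11.48 in mSSC, 12.03 and 11.89 in iSSC, and 10.73 and 7.71 in SSC.

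Cxcl5 measured 6.41 and 11.02 in mSSC, 9.63 and 10.36 in iSSC, and 8.68 and 7.47 in SSC. Here mSSC replicate 2 was the highest of the 6 arrays and mSSC replicate 1 the lowest. The differences were 0.64 ± 1.36 for mSSC minus SSC (adjusted p = 0.786), 1.91 ± 1.36 for iSSC minus SSC (adjusted p = 0.55) and -1.27 ± 1.36 for mSSC minus iSSC (adjusted p = 0.611). The calls made by leaving out an mSSC array ran in opposite directions. Without mSSC replicate 1, Cxcl5 was higher in mSSC than in SSC by 2.95 (adjusted p = 0.0341). Without mSSC replicate 2, it was lower in mSSC than in iSSC (-3.58, adjusted p = 0.0188).

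**Figure D3:**
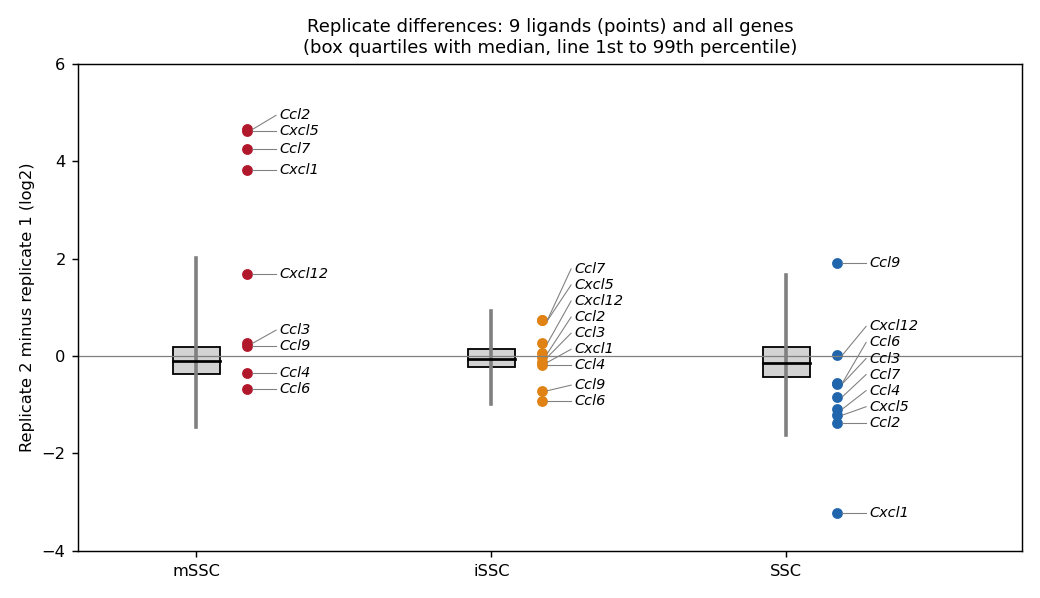
Replicate 2 minus replicate 1 (log2, vertical axis) of the 9 ligands (points) in mSSC, iSSC and SSC, beside all 18194 genes (box with quartiles and median, line over the central 98% of genes). In mSSC, Ccl2, Cxcl5, Ccl7 and Cxcl1 lie far above the line, at 4.65, 4.61, 4.25 and 3.81.

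The replicate gap of these 4 ligands in mSSC was among the widest on the arrays. Ccl2 was 4.65 higher in mSSC replicate 2 than in replicate 1, and 3 of the 18194 genes, itself included, were at least as far apart. The counts were 4 genes for Cxcl5 (4.61), 11 for Ccl7 (4.25) and 26 for Cxcl1 (3.81), against a median gap of 0.29 over all genes. Gaps of the other ligands in mSSC were 1.68 for Cxcl12 and at most 0.68 in size for Ccl3, Ccl4, Ccl6 and Ccl9. In SSC, Cxcl1 was 3.22 lower in replicate 2 than in replicate 1 (-3.22), and 18 genes were at least as far apart. In iSSC the widest gap was 0.93 in size, for Ccl6.

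Part of the inflammatory list showed such a gap. Of its 19 genes, 11 were more than 1 higher on the log2 scale in mSSC replicate 2 than in replicate 1, as were 4.52% of all genes. The other 8, among them Il1b, Tnf, Irf1 and Icam1, lay within 1, and the limit of 1 was chosen after the values were seen. A gap the other way was seen in SSC. There 9 of the 19 were more than 1 higher in replicate 1, as were 1009 of all 18194 genes, and 1 was higher in replicate 2. In iSSC 18 of the 19 lay within 1. Il6, a cytokine made by activated fibroblasts and macrophages, measured 4.08 and 9.00 in mSSC, 8.07 and 6.51 in iSSC, and 5.16 and 3.79 in SSC. Lcn2, an iron-carrier protein of acute inflammation, measured 6.29 and 10.24 in mSSC, 12.99 and 13.41 in iSSC, and 9.81 and 7.13 in SSC. Il6 and Lcn2 were likewise chosen after their values were seen. The summed log2 signal of 19 inflammatory signal genes was 12.99 and 14.25 in mSSC, 15.52 in both iSSC arrays, and 14.80 and 13.38 in SSC. The macrophage markers summed to 10.98 and 12.00 in the mSSC arrays, with C1qb at 4.11 and 4.14 and Lyz2 at 6.16 and 6.15. Of the same list, Laptm5 (10.02 and 11.27) and Cd68 (8.16 and 9.84) were higher in mSSC replicate 2. Fibroblast markers summed to 13.28 and 14.35. The part of these genes in the gap was not tested.

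**Figure D4:**
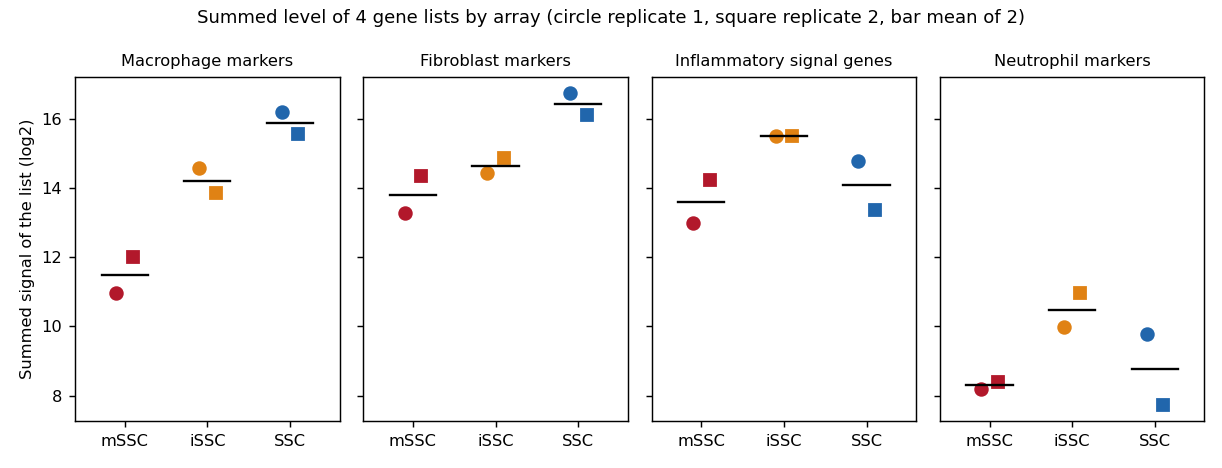
Summed signal (log2, vertical axis) of the macrophage, fibroblast, inflammatory and neutrophil lists in the mSSC, iSSC and SSC arrays (horizontal axis). Circles are replicate 1, squares replicate 2 and bars the mean of 2. Macrophage and fibroblast lists are highest in SSC, and the inflammatory list is highest in iSSC at 15.52 on both arrays. Linear signals were summed, so the brightest genes weigh most. The median of the inflammatory genes was 9.03 and 8.43 in iSSC, and 8.96 in mSSC replicate 2.

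Of the 19 inflammatory genes 4 were lower in mSSC than in iSSC and none was higher, beside 9.6% and 7.53% of all genes. These were the transcription factor genes Cebpd (-3.29 ± 0.61, adjusted p = 0.0156), Cebpb (-2.35 ± 0.46, adjusted p = 0.0192) and Irf1 (-1.48 ± 0.35, adjusted p = 0.035), and Csf1, the macrophage growth factor gene (-3.50 ± 0.88, adjusted p = 0.0408). The count was 0 without either iSSC array, 1 without mSSC replicate 1 and 7 without mSSC replicate 2. Against SSC, Irf1 was lower in mSSC and Icam1, an adhesion molecule for leukocytes, was higher (1.48 ± 0.34, adjusted p = 0.031). Over all genes 18.8% were called in this comparison. The count of 2 was 0 without either iSSC array, 1 without mSSC replicate 1 and 3, all lower, without mSSC replicate 2. In iSSC against SSC 0 of the 19 passed in limma, also with a variance trend and robust fit, while 3 had an unadjusted p under 0.05 and the median was 0.74. Of 8 neutrophil markers 0 passed in any comparison in limma, with 1 at an unadjusted p under 0.05 in each. S100a8 measured 5.09 and 6.69 in mSSC, 9.57 and 10.79 in iSSC, and 9.42 and 4.99 in SSC, and its partner S100a9 was at 3.69 to 4.59 throughout.

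The 26 other measured chemokine ligands mostly did not pass. Of these, 3 were lower and 1 was higher in mSSC than in SSC, beside 10.6% and 8.22% of all genes. Ccl12, a mouse monocyte chemoattractant, measured 4.36 and 5.53 in mSSC, 7.76 and 6.30 in iSSC, and 8.06 and 7.74 in SSC. It fell in mSSC against SSC (-2.95 ± 0.56, adjusted p = 0.0171), a lower limit in size, since mSSC replicate 1 lay at the lower quartile. Ccl17, a T cell attractant, fell 3.42-fold (-1.77 ± 0.35, adjusted p = 0.019) and Cxcl14 fell 6.89-fold (-2.78 ± 0.69, adjusted p = 0.0379). Without SSC replicate 1 none of the 26 passed in this comparison (limma, 7 at an unadjusted p under 0.05), and without mSSC replicate 1 the count was 2, both higher.

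Cxcl10, an interferon-induced attractant of T cells, was higher than in SSC in both other kinds. It measured 6.95 and 6.94 in mSSC, 8.01 and 7.05 in iSSC, and 5.65 and 5.46 in SSC. The rise was 1.38 ± 0.33 in mSSC (adjusted p = 0.0351) and 1.97 ± 0.33 in iSSC (adjusted p = 0.0463). The iSSC call was lost when any SSC or iSSC array was left out. The mSSC call was lost when either SSC array was left out, with the probe set of lowest mean and with a 2-fold minimum. None of the 26 was called in iSSC against SSC with the replicate block, without dim genes, with probe sets averaged or at their lowest, with a 2-fold minimum or after quantile normalization. No other ligand passed in iSSC against SSC, and 0 of the 26 passed in mSSC against iSSC in limma. In the latter 3 were at an unadjusted p under 0.05, beside 5629 of all 18194 genes. With a variance trend and robust fit 1 was called lower in mSSC against iSSC. In that comparison 2 were lower without either SSC array or without mSSC replicate 2.

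**Figure D5:**
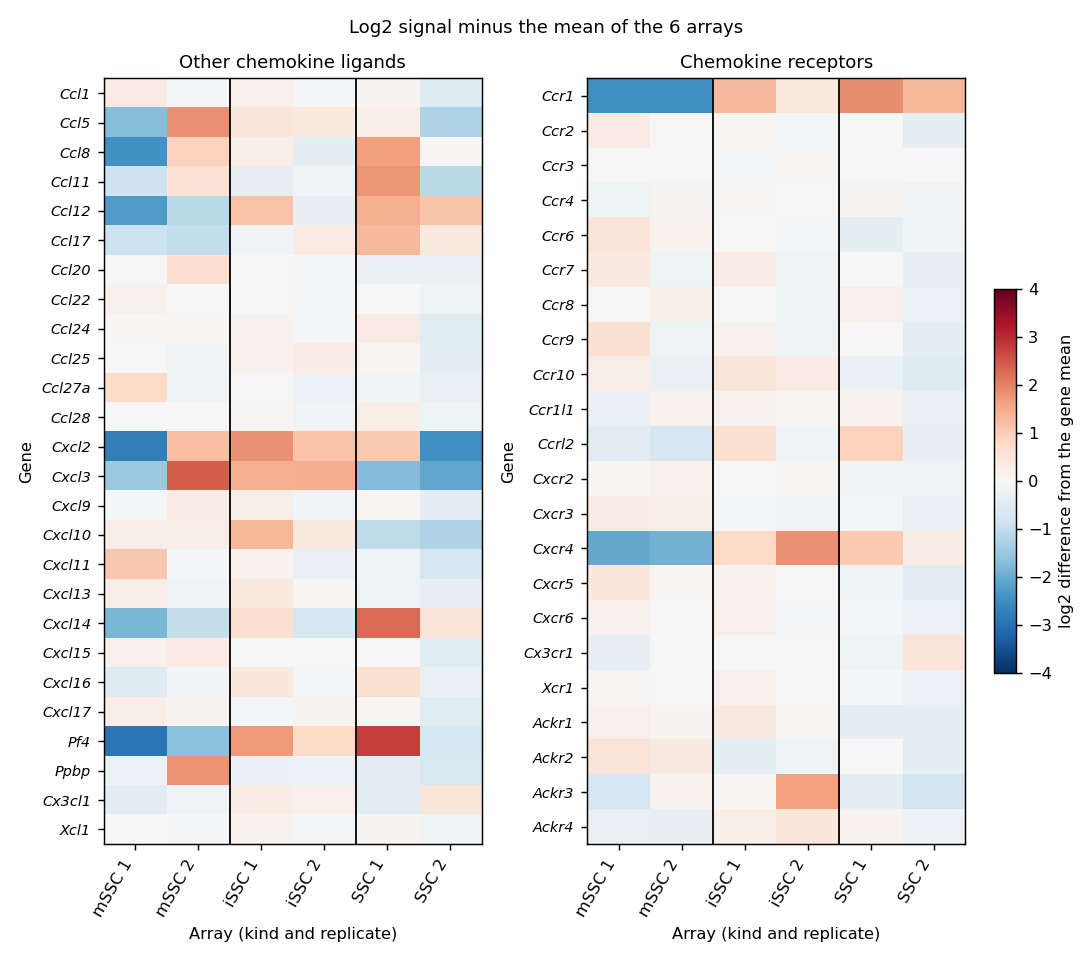
Log2 signal minus each gene's mean over the 6 arrays (colour) for 26 other chemokine ligands and 22 receptors (rows) on the mSSC, iSSC and SSC arrays (columns). Ccr1 and Cxcr4 are low on both mSSC arrays, and Cxcl2 is low on mSSC replicate 1 and SSC replicate 2.

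Among 22 measured receptors, Ccr1 and Cxcr4 were lower in mSSC, 2 of 22 against SSC and the same 2 against iSSC, beside 10.6% and 9.6% of all genes, so the share of receptors was near that of all genes. No receptor passed in iSSC against SSC (limma, with 3 at an unadjusted p under 0.05, beside 3090 of all 18194 genes). Ccr1, the receptor for Ccl3, Ccl6 and Ccl9, measured 4.37 and 4.39 in mSSC, 8.14 and 7.24 in iSSC, and 8.69 and 8.17 in SSC. It fell in mSSC against SSC (-4.05 ± 0.35, adjusted p = 0.00168) and against iSSC (-3.31 ± 0.35, adjusted p = 0.00313), again lower limits, since the mSSC values lay at the lower quartile. Cxcr4, the receptor for Cxcl12, measured 5.56 and 5.69 in mSSC, 8.42 and 9.44 in iSSC, and 8.65 and 7.90 in SSC. It fell 6.25-fold against SSC (-2.64 ± 0.40, adjusted p = 0.00878) and 9.88-fold against iSSC (-3.30 ± 0.40, adjusted p = 0.00475). In both comparisons 2 receptors were called lower whichever array was left out.

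Other receptors of these ligands showed little. Ccr2, which binds Ccl2 and Ccl7, lay between 6.12 and 6.84 on the 6 arrays. Cxcr2, which binds Cxcl1 and Cxcl5, lay between 4.04 and 4.44, near the lower quartile. Ackr3, a scavenging receptor for Cxcl12, measured 6.63 and 7.45 in mSSC, 7.35 and 8.91 in iSSC, and 6.94 and 6.53 in SSC, and no difference passed.

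Profiles were compared by the root mean square difference of centred log2 values over the 6 arrays, which share the arrays and are a description without a test. The closest gene to Ccl2 among all genes was Ccl7 and the reverse, at a difference of 0.32 (Pearson's r = 0.987). The closest to Cxcl1 was Cxcl2, another neutrophil attractant of the chromosome 5 cluster, at 0.19 (r = 0.995). Cxcl2 measured 4.61 and 8.57 in mSSC, 9.18 and 8.51 in iSSC, and 8.41 and 4.92 in SSC. Saa3, an acute phase protein gene, came second for both Ccl2 (0.67) and Cxcl1 (0.53). The closest to Cxcl5 was the T cell attractant Ccl5 (0.60), followed by Mmp3, a matrix protease gene (0.62).

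The closest to Ccl6 was the macrophage lysozyme gene Lyz2 (0.54, r = 0.989), which measured 6.16 and 6.15 in mSSC, 13.61 and 12.80 in iSSC, and 14.27 and 14.16 in SSC. Next came Lyz1 (0.58), a related lysozyme gene whose probes may share transcripts with Lyz2, and then Afp (0.66, r = 0.984). For Ccl3 the closest were Adam8, a leukocyte membrane protease gene (0.22), Pmp22 (0.23) and Lcp1, an actin-bundling protein of leukocytes (0.32). Those of Ccl9 were 4930550L24Rik (0.40) and Mageb3 (0.44), and that of Cxcl12 was Csgalnact1, an enzyme of chondroitin sulfate synthesis (0.14). Ccl4 was closest to Psd3 (0.16). Between ligands the least like pair was Ccl6 and Cxcl5, at 3.94.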

How the data were processed

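Total RNA from 2 mSSC, 2 iSSC and 2 SSC samples was amplified, biotin-labelled and hybridised to Affymetrix arrays, per the labels' protocols. The authors deposited log2 signals made with RMA, per the submitters' processing notes, which name no version. RMA corrects background, quantile-normalizes and summarises the probes of a set. No further normalization was applied, and 0 columns were left out.

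Of 45101 probe sets, 34958 had exactly 1 gene symbol, 932 several and 9211 none in the probe table. The set with the highest mean over 6 arrays stood for its gene, which gave 18194 genes without a filter. Groups were taken from sample titles. A group means model over all 6 arrays was fitted to all genes with limma 3.58.1 in R 4.3.3 (moderated, 2-sided), leaving 3 residual degrees of freedom. A gene was called where p, adjusted over all genes by Benjamini-Hochberg, was under 0.05. Each ± after a difference is the SE of this model. The script was tested on simulated data.

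The 9 ligands and all other lists were chosen with earlier results of these data known. The text names the 9 ligands and draws on up to 4 called genes of a list, the brightest 4 of a marker list and the 3 genes most like each ligand. Not every gene that meets this rule is named. Cd163, Il6, Lcn2, Il1b, Tnf, S100a9, Ccr2, Cxcr2, Ackr3, Cdh5, Tie1, Emcn, Lum and Fap fall outside this rule and were named after their values were seen. Promoter windows came from RefSeq (GRCm38.p6), and motifs were searched in the 250 bases before the start. Alternatives were a replicate term, a dim-gene filter, other probe set rules, 4-array fits, other variance models, a 2-fold minimum, quantile normalization and leaving out each array. Depth is not defined for arrays, and their number limits the precision.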

Additional observations from a re-analysis of the deposited data

How the results depend on the processing

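Of the calls made for the 9 ligands, Ccl3, Ccl6 and Ccl9 stayed lower in mSSC against both other kinds under every alternative run, and Cxcl12 stayed lower against SSC except with the probe set of lowest mean. With either iSSC array left out, mSSC against SSC rests on the same spread as the 4-array fit. A kind left with a lone array takes its spread from the other kinds. Leaving out arrays gave 5 to 6 ligands called in mSSC against SSC, 3 to 7 in mSSC against iSSC and 0 to 1 in iSSC against SSC, where the 4-array fit called 1, Cxcl12. Over all genes the counts then were 1966 to 3462, 604 to 3724 and 0 to 503 in the same order, and the cause was not tested. With the probe set of lowest mean they were 1968, 1715 and 0, and with a minimum change of 2-fold 514, 483 and 0. For iSSC against SSC these zeros in limma stood beside 2311 and 510 genes at an unadjusted p under 0.05. That comparison gave 29 genes with probe sets averaged, and mSSC against SSC gave 1966 with 4 arrays.

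With the replicate block, iSSC against SSC gave 148 genes in place of 381. The block changed no call of the 9 ligands, and with it none of the other ligands was called in iSSC against SSC, against 1 without it, Cxcl10. Same-numbered arrays deviated together at r = 0.17, 0.068 and 0.12 for mSSC with iSSC, mSSC with SSC and iSSC with SSC, so the numbers were not taken as pairs.

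Signs that turned belonged to differences that were not called, apart from Cxcl12. Its probe set of lowest mean gave 0.40 in mSSC minus SSC and 0.44 in iSSC minus SSC. Cxcl1 in mSSC minus SSC was 0.16 with probe sets averaged and 0.51 with the lowest. Ccl6 in iSSC minus SSC was -0.0245 and -0.20 under these settings. Leaving out arrays gave, in mSSC minus SSC, -3.60 to 1.05 for Ccl2, -3.79 to 0.46 for Ccl7, -2.07 to 1.74 for Cxcl1 and -1.67 to 2.95 for Cxcl5. In iSSC minus SSC it gave -0.31 to 0.62 for Ccl6 and -0.12 to 1.79 for Ccl9, and in mSSC minus iSSC -3.58 to 1.03 for Cxcl5. Quantile normalization moved the median of all genes by at most 0.038 in size and ended the Cxcl12 call in mSSC against iSSC (adjusted p = 0.0775). With array omissions included, that Cxcl12 call was lost in 10 of the alternatives run.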
